A study of Mus musculus with 60 samples.

Results

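The 48 unirradiated mice of this blood RNA sequencing series were set side by side by animal number: 24 odd-numbered against 24 even-numbered mice, of 60 mice in all. The animal number is part of each sample's label. Each of the 8 unirradiated treatment-by-day groups held 3 odd and 3 even numbers, so odd and even mice were matched for treatment and day, and the groups entered each fit as blocks. The split was chosen because liver transcripts had already been seen in the blood of odd-numbered mice of this series. The differences between odd and even unirradiated mice below are therefore a description, and the tests are those in the 12 irradiated mice and of the interactions. High liver transcripts in some odd irradiated mice were also known beforehand, which limits those tests. What the numbers stood for in the animal room or at blood collection is not given in the sources used here.

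The study asked how BIO 300, an oral powder of synthetic genistein given as a radiation countermeasure, changes gene expression in the blood of male CD2F1 mice with and without total-body irradiation (TBI). Blood was drawn from the inferior vena cava of anesthetised mice in a terminal bleed, and each sample is 1 mouse. The unirradiated groups of 6 were, on Day 0, the day after the last dose, 50 mg/kg BIO 300 (mice 1 to 6), 100 mg/kg (7 to 12), vehicle (13 to 18) and 200 mg/kg (19 to 24). On Day 1, a day later, they were vehicle (25 to 30), 50 mg/kg (31 to 36), 100 mg/kg (37 to 42) and 200 mg/kg (43 to 48). The irradiated groups received 9.2 Gy on Day 0 after vehicle (49 to 54) or 200 mg/kg BIO 300 (55 to 60) and were bled on Day 1. No transgene or mutant allele is named for any group.

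Hepatocytes, the main cells of the liver, make most of the proteins of blood plasma, among them albumin, fibrinogen and the apolipoproteins, but they do not circulate. Kupffer cells are the resident macrophages of the liver and sit in its sinusoids, next to the sinusoidal endothelium. B cells, which carry the antibody genes and are commonly the most numerous lymphocytes of mouse blood, do circulate, and their share of whole-blood RNA moves with that of every other cell type in the tube.

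Total counts per mouse ran from 15099415 to 45589415, with a median of 25207400 in the odd and 24377200 in the even unirradiated mice. Genes with 10 or more counts numbered 10893 to 18075 (median 16246) in odd and 11929 to 16902 (median 14962.5) in even mice. Mitochondrially encoded genes took a mean of 0.541% ± 0.228 of counts in odd and 0.494% ± 0.134 in even mice (SD, n = 24 each), and haemoglobin genes a median of 10.4% and 11.2%. In the 10 groups, 11 mouse levels of the hepatocyte, Kupffer cell and white adipocyte lists stood apart from the rest of their group, 9 in odd and 2 in even mice, and the calls that remain without the 5 odd mice richest in hepatocyte transcripts (9, 17, 21, 29 and 37) are given list by list. Levels are CPM, a gene's share of the library's counts after scaling with TMM factors over all 60 mice, and serve to compare mice and not genes, since they are not divided by gene length. Fold changes come from edgeR fits on the counts, and a gene is called at an adjusted p under 0.05.

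Across 27778 genes tested in the 48 mice, 1472 (5.3%) were called higher and 575 (2.07%) lower in odd-numbered mice. With a change of over 2-fold as well, 1104 (3.97%) were higher and 15 (0.054%) lower, so the large differences lay on the odd side and the genes lower in odd mice differed by small amounts. The split was chosen on this contrast, so these shares are read as a description. Of the 1104 genes, 355 (32.2%) had 3 or fewer counts summed over all 24 even mice, and 158 had no count in any even mouse. Over all genes tested the share with 3 or fewer was 2.97%. Genes with so few even counts passed the filter of 10 summed counts only through the odd mice. The larger share among genes picked as higher in odd mice was thus built into the selection. These 1104 genes together took between 0.0110% and 5.24% of a mouse's counts in odd mice, with a median of 0.0770%, and at most 0.0736% in any even mouse. Scaled to total counts alone, with no TMM factors, the calls were 1871 higher and 12 lower, and the median log2 difference of all genes moved from 0.0074 to 0.14. Without those 5 odd mice, 537 genes were called in place of 2047, and 327 of them differed by over 2-fold. In the 12 vehicle mice alone, edgeR called 0 genes, with 3090 at an unadjusted p under 0.05.

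The 16 hepatocyte genes, summed in each mouse, lay between 0.373 and 5.78 CPM (median 0.653) in the 24 even mice. In the 24 odd mice they lay between 0.589 and 15029 CPM (median 32.3), and 15 of the 24 were above the highest even mouse. The odd mice were thus not shifted as a body: 9 of them overlapped the even mice, and the others spread over several orders of magnitude.

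On Day 0, the odd mice given 50 mg/kg held 1076, 0.589 and 65.6 CPM of hepatocyte genes (mice 1, 3 and 5). Those given 100 mg/kg held 0.804, 2716 and 16.0 CPM (mice 7, 9 and 11). The vehicle mice held 4.97, 1.91 and 15029 CPM (mice 13, 15 and 17), the last being the highest of all unirradiated mice. The odd mice given 200 mg/kg held 0.864, 2417 and 0.834 CPM (mice 19, 21 and 23). In each Day 0 group, then, 1 odd mouse was far above the other odd mice. On Day 1, the odd vehicle mice held 3.49, 44.1 and 2167 CPM (mice 25, 27 and 29). The odd mice given 50 mg/kg held 2.26, 39.5 and 18.8 CPM (mice 31, 33 and 35). Those given 100 mg/kg held 4720, 306 and 25.1 CPM (mice 37, 39 and 41), and this was the 1 unirradiated group in which all 3 odd mice were above the highest of the 24 even mice. The odd mice given 200 mg/kg held 1498, 112 and 0.867 CPM (mice 43, 45 and 47). Vehicle and BIO 300 groups, and both days, thus held odd mice with hepatocyte transcripts, and both also held odd mice at the level of the even ones.

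**Figure D1:**
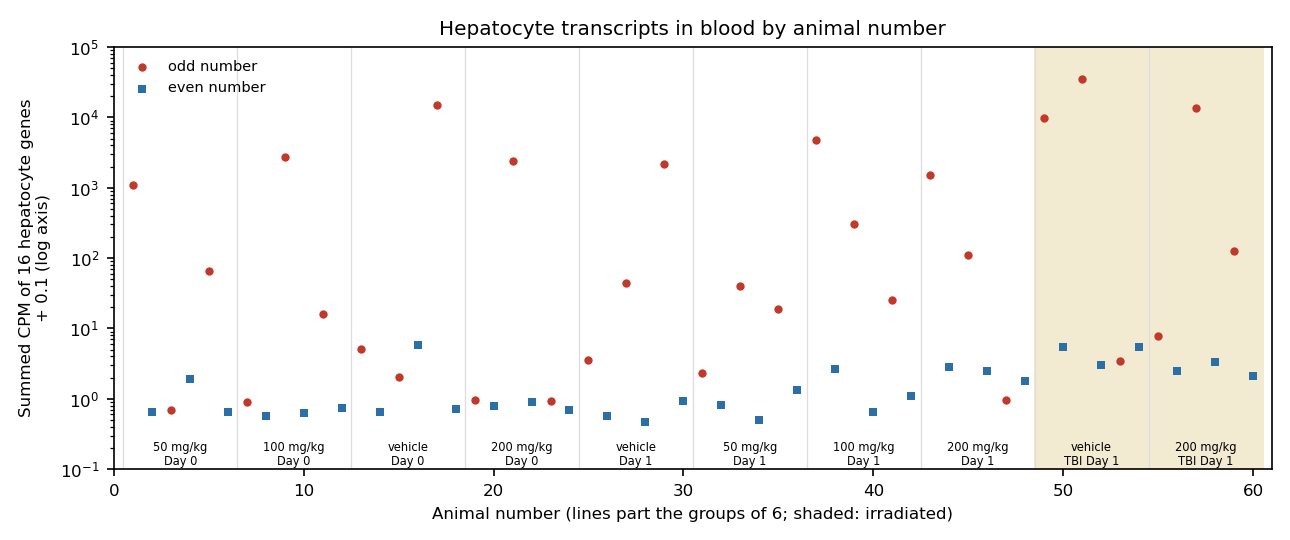
Summed CPM of the 16 hepatocyte genes, with 0.1 added for the log axis, against animal number; each point is 1 mouse, circles are odd and squares even numbers, lines part the groups of 6 and the shaded area marks the irradiated mice. The 48 unirradiated mice include no even mouse above 5.78 CPM, while odd mice reach 15029 CPM.

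A mouse was counted as carrying the list when 8 or more of the 16 genes were at 10 CPM or more. By that count 8 of 24 odd mice (1, 9, 17, 21, 29, 37, 39 and 43) and 0 of 24 even mice carried it. The number of odd mice was 12 at a minimum of 1 CPM and 4 at 100 CPM. Within the groups of 6, the carrying mice stood in the first place 3 times, in the third place 3 times and in the fifth place 2 times, so no single place among the odd numbers held them. On the scale of mean log2(CPM + 1) over the 16 genes, the odd-minus-even difference was 2.53 ± 0.91 (SD of the 8 within-group differences) and ran from 0.76 in the 50 mg/kg Day 1 group to 4.00 in the 100 mg/kg Day 1 group. Odd mice were higher in 8 of 8 groups. All 16 genes were called higher in odd mice, beside the 5.3% of all genes, with a median fitted log2 fold change of 11.8 against 0.0074 over all genes tested. Without the 5 odd mice richest in these transcripts, the difference was 1.19, odd mice were still higher in 8 of 8 groups, and all 16 genes were still called. The carrying mice 1, 39 and 43 remained in that comparison.

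Alb (chromosome 5, 90460897 to 90476602, plus strand, GRCm38), which encodes albumin, had 344959 counts summed over the odd mice and 14 over the even mice. Its level reached 6451 CPM in odd mice, with a median of 12.4 CPM, and 0.211 CPM in even mice, and 17 of 24 odd mice were above the highest even mouse. Its fitted log2 fold change was 13.94 ± 1.56 (SE). Albumin is the most abundant protein of plasma and is made by hepatocytes. In the 13 mice of the series with 100 CPM or more of hepatocyte genes, Alb made up 32.1% to 45.7% (median 38.9%) of the counts of the 16 genes.

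Serpina3k (chromosome 12, 104338486 to 104346144, plus strand), a serine protease inhibitor secreted by the liver, had 87945 counts over odd and 2 over even mice, a ratio of 35290 after scaling to library size (95% exact interval 9769 to 291403, counting error only). Its level was above the highest even mouse in 20 of 24 odd mice, the widest reach of the genes named here. Apob (chromosome 12, 7977648 to 8016835, plus strand), the structural protein of very-low-density lipoprotein, had 117952 counts over odd and 6 over even mice and a fitted log2 fold change of 13.47 ± 1.54. Fgg (chromosome 3, 83007724 to 83015049, plus strand), the gamma chain of fibrinogen, had 28867 counts over odd mice and 0 over even mice, so it was at least 7722-fold higher against a floor of 3 counts over the even group. Cps1, the first enzyme of the urea cycle, had 44385 counts over odd and 1 over even mice. Ttr, the carrier of thyroid hormone and retinol, had 38598 and 1, and Ahsg (fetuin-A) had 40659 and 2. Cyp3a11, a drug-metabolising cytochrome P450, had 83908 and 6. The 10 genes of 10 CPM or more with the largest fitted log2 fold change were these 8 with Fga, the alpha chain of fibrinogen, and Pzp, a protease inhibitor of plasma, and all 10 are known products of hepatocytes. Their fitted fold changes depend on the prior count where the even mice have next to no counts. Counts summed over odd mice, and the ratio, interval and floor built on them, weigh the hepatocyte-rich mice most. Mouse 17, for example, held 356770 counts of the 16 hepatocyte genes and mouse 45 held 1170. These values therefore do not describe a typical odd mouse or the spread between mice.

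The liver lobule has zones, and genes of both ends were among the calls. All 6 periportal genes were called higher in odd mice (list difference 1.14 on the log2 scale, odd higher in 7 of 8 groups), among them Pigr, the transporter of polymeric antibodies, at a log2 fold change of 3.91 ± 0.69. Of the 5 pericentral genes, Cyp1a2, Lect2 and Slc1a2 were called higher. Cyp1a2, a cytochrome P450, had 4839 counts over odd and 3 over even mice. Glul (glutamine synthetase) and Oat (ornithine aminotransferase), which blood cells also express, were not called, and their log2 fold changes were -0.01 ± 0.09 and 0.15 ± 0.10. The 3 pericentral genes called were those with a median of 0 CPM in even mice. Of 6 acute phase genes, 5 were called higher. Saa1, an apolipoprotein of the acute phase, had 1620 counts over odd and 0 over even mice, at least 433-fold higher, with a highest level of 64.6 CPM. Hp (haptoglobin), which blood cells express too, differed by a log2 fold change of 0.57 ± 0.17 and had medians of 37.9 CPM in odd and 29.0 CPM in even mice. Without the 5 hepatocyte-rich odd mice, the same 3 pericentral genes were called, 2 of 6 periportal genes (Cyp2f2 and Sds) and 0 of 6 acute phase genes, and Pigr stood at 1.45 in place of 3.91.

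Kupffer cell genes lay at 0 to 52.0 CPM summed over 7 genes in odd (median 3.92) and 0 to 8.05 CPM (median 0.440) in even mice. The odd mice were higher in 8 of 8 groups, and 8 of 24 were above the highest even mouse. Of the 7 genes, 5 were called higher (Clec4f, Vsig4, Timd4, Cd5l and C6), beside 5.3% of all genes. Clec4f, a lectin receptor found on Kupffer cells, had 413 counts over odd and 0 over even mice, and its highest level was 7.08 CPM, in mouse 17, the mouse with the most hepatocyte transcripts. Cd5l, a macrophage protein of liver and spleen, had 1599 and 237 counts, with 9 odd mice above the highest even mouse. Timd4, a receptor for dying cells, had 749 and 139 counts, and here its highest even mouse, at 4.62 CPM, was above all odd mice. Of the 6 genes of liver sinusoidal endothelium, only Gpr182 was called higher (0.30 ± 0.10 on the log2 scale), and the summed lists overlapped between odd (12.9 to 80.5 CPM) and even (10.2 to 76.9 CPM) mice. Without the 5 hepatocyte-rich odd mice, Clec4f, Vsig4, Cd5l and C6 were still called, Timd4 and Gpr182 were not, and the Kupffer cell difference was 0.28 in place of 0.53, with odd mice higher in 7 of 8 groups.

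Markers of several other tissues were low. Of 8 mesothelial genes, 4 were called higher in odd mice (Msln, Krt19, Wt1 and Muc16), and odd mice were higher in 8 of 8 groups, but the difference was 0.11 on the log2 scale and the summed level at most 5.69 CPM in odd and 3.33 CPM in even mice. Msln, which encodes mesothelin, had 74 counts over odd and 15 over even mice. Of 8 endothelial genes, Cdh5, Tek and Ptprb were called higher, with log2 fold changes of 0.70, 0.95 and 1.82. Fabp2, the intestinal fatty-acid binding protein, was the 1 gene of 8 on the intestinal epithelium list called higher, with 640 counts over odd and 1 over even mice. The summed list was highest in mice 17 (9.94 CPM) and 37 (8.43 CPM), the mice with the most hepatocyte transcripts. It was at most 2.58 CPM in even mice. Which tissue the Fabp2 transcripts came from was not tested. Without the 5 hepatocyte-rich odd mice, none of the mesothelial and endothelial genes was called, and Fabp2 still was. None of the genes tested from the exocrine pancreas, kidney, adrenal cortex, cardiac muscle, smooth muscle, fibroblast, Schwann cell, keratinocyte, lung epithelium and male accessory gland lists was called in either direction.

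White adipocyte genes differed little by number in the unirradiated mice. Their summed level was 2.93 to 296 CPM (median 4.16) in odd and 2.57 to 81.5 CPM (median 10.2) in even mice, the difference was 0.0041 on the log2 scale with an SD of 0.75 over the 8 groups, and 0 of 8 genes was called. High values occurred on both sides: in the odd mice 39 (296 CPM), 41 (157 CPM) and 43 (69.5 CPM) and in the even mice 16 (81.5 CPM), 20 (57.9 CPM) and 30 (57.1 CPM). Brown adipocyte genes were likewise high in mouse 39 (266 CPM) and in the even mouse 20 (46.8 CPM), and of the 5 genes only Elovl3, a fatty-acid elongase, was called higher in odd mice. Elovl3 is also expressed in liver, and its 2 highest levels were in mice 17 (8.68 CPM) and 37 (6.82 CPM), the mice with the most hepatocyte transcripts. Ucp1, which defines brown fat, reached 177 CPM in mouse 39 and, on the even side, 33.0 CPM in mouse 20. Which tissue the Elovl3 transcripts came from was not tested. Skeletal muscle genes stood out in the even mouse 16 alone, at 106 CPM against 3.59 to 5.96 CPM in every other unirradiated mouse, and the call of Myh4, a fast myosin, as lower in odd mice rests on that mouse. Without the 5 hepatocyte-rich odd mice, Elovl3 was not called (2.06 in place of 4.42 on the log2 scale).

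**Figure D2:**
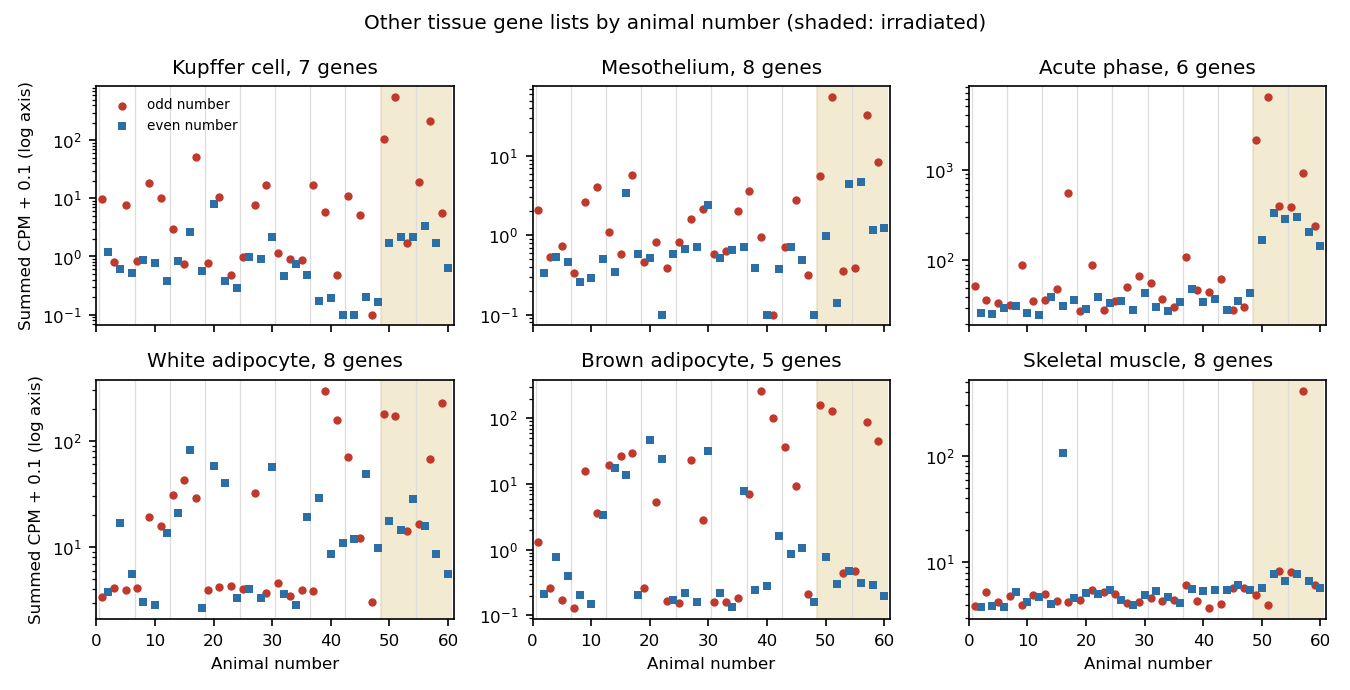
Summed CPM, with 0.1 added for the log axis, of 6 further gene lists against animal number; each point is 1 mouse, circles are odd and squares even numbers, and the shaded area marks the irradiated mice. Kupffer cell genes reach 52.0 CPM in odd and 8.05 CPM in even unirradiated mice, while white adipocyte genes reach 296 CPM in odd and 81.5 CPM in even mice.

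Among blood cell genes, the B cell list was lower in odd mice. The 8 genes summed to 255 to 2214 CPM (median 1398) in odd and 445 to 2582 CPM (median 1748) in even mice, so the ranges overlapped almost wholly, and the within-group difference was -0.34 ± 0.22 (SD of 8 groups) on the log2 scale. Odd mice were lower in 7 of 8 groups, by up to 0.67 in the 100 mg/kg Day 1 group, and in the 200 mg/kg Day 0 group they were higher by 0.04. Of the 8 genes, 7 were called lower, beside 2.07% of all genes. In whole blood, fewer B cells and less RNA per B cell cannot be told apart.

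Pax5 (chromosome 4, 44524757 to 44710487, minus strand), the transcription factor that keeps B-cell identity, was at 18.4 to 225 CPM (median 115) in odd and 39.1 to 232 CPM (median 164) in even mice, with a log2 fold change of -0.50 ± 0.09. In the vehicle Day 1 group, for example, Pax5 was at 86.6, 114 and 152 CPM in the odd and 178, 176 and 195 CPM in the even mice. The odd and even mice of that group did not overlap, whereas in the 200 mg/kg Day 0 group, at 139, 107 and 125 CPM against 182, 99.7 and 136 CPM, they did. Ighm (chromosome 12, 113418558 to 113422730, minus strand), the heavy chain of IgM, had medians of 464 CPM in odd and 564 CPM in even mice and a log2 fold change of -0.35 ± 0.08. Ighd, the heavy chain of IgD on mature naive B cells, differed by -0.37 ± 0.09, and Cd79a and Cd79b, the signalling chains of the B-cell receptor, by -0.35 ± 0.08 and -0.33 ± 0.08.

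The 10 genes of 10 CPM or more with the largest log2 fold change below 0 were Pax5, Map1a, Ly6d, Pou2af1, Tnfrsf13c, Prr5, Chst3, Fcmr, Spib and Bach2, from -0.50 to -0.40. Several are known B-cell genes: Pou2af1 is a coactivator of the octamer factors, Tnfrsf13c the receptor for the survival factor BAFF, Fcmr the receptor for IgM, and Spib and Bach2 transcription factors of B cells. In none of the 10 genes was any odd mouse above the highest even mouse. Map1a was the most uneven of them, with a highest even level of 213 CPM against a median of 23.3 CPM. These calls depended on the scaling and on the blocks: with total counts in place of TMM, and again without the 8 groups as blocks, none of the 7 B-cell genes nor of these 10 genes was called, and the B-cell difference with total counts was -0.20. Without the 5 odd mice richest in hepatocyte transcripts, Pax5 was still called at -0.50, while Cd79a, Cd79b, Cr2, Ighd, Ighm, Ms4a1 and Map1a were not. The size of the B-cell difference changed little, at -0.30 in place of -0.34, with odd mice higher in 1 of 8 groups.

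On the lists of the other blood lineages few genes were called, though some list differences came near the B cell value of -0.34 ± 0.22. The largest were -0.29 ± 0.72 for haemoglobin, -0.24 ± 0.57 for patrolling monocytes, 0.24 ± 0.35 for classical monocytes and -0.20 ± 0.53 for platelets (SD of 8 groups). Their spreads between groups were wider than that of the B cell list. No gene of the T cell, NK cell, neutrophil, immature neutrophil granule, patrolling monocyte, dendritic cell, platelet, haemoglobin, haem synthesis or red cell membrane lists was called. On the plasma cell list, Jchain, the joining chain of secreted IgM and IgA, was called higher (0.57 ± 0.18) and Mzb1, an antibody-folding factor shared with B cells, lower (-0.34 ± 0.09). On the classical monocyte list, Fn1 (fibronectin), which hepatocytes also make, was called higher at 1.33 ± 0.37, with a highest level of 520 CPM in odd and 133 CPM in even mice. Cpa3, a mast cell and basophil protease, was called higher at 0.45 ± 0.13. Without the 5 hepatocyte-rich odd mice, Jchain and Cpa3 were still called (0.64 and 0.43), while Mzb1 and Fn1 were not (-0.29 and 0.85).

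Of the program lists, 5 of 12 ribosomal protein genes were called lower in odd mice (among them Rpl4, Rpl27 and Rps24), with a list difference of -0.15 that became -0.02 with total counts. Of 12 circadian clock genes, 4 were called higher (Dbp, Nr1d1, Per3 and Hlf), and odd mice were higher in 8 of 8 groups by a mean of 0.23. Dbp, a clock output factor that is strongly expressed in liver, had medians of 4.82 CPM in odd and 3.61 CPM in even mice, and 10 of 24 odd mice were above the highest even mouse. Hlf and Nr1d1, also rhythmic in liver, differed by log2 fold changes of 1.63 ± 0.35 and 1.20 ± 0.28. The summed clock genes were above the highest even mouse (99.4 CPM) in 5 odd mice. These were 1 (106 CPM), 9 (115 CPM), 17 (202 CPM), 29 (110 CPM) and 37 (126 CPM), all of which carried the hepatocyte list. The mice 21 (98.8 CPM), 39 (71.0 CPM) and 43 (85.5 CPM), which carried it too, were below that even mouse. Which cells the clock transcripts came from was not tested. Single members were called on other lists, namely Vegfa, the endothelial growth factor (higher, 1.43 ± 0.29), Klf9 (higher, 0.58 ± 0.17) and Tsc22d3 (lower, -0.25 ± 0.08), both targets of glucocorticoid. Without the 5 hepatocyte-rich odd mice, none of these ribosomal, clock or other program genes was called. The clock difference was then 0.10, with odd mice higher in 5 of 8 groups, while the ribosomal difference changed less, to -0.12 from -0.15. No gene of the immediate early, heat shock, interferon-stimulated, p53 target or mitochondrially encoded lists was called.

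**Figure D3:**
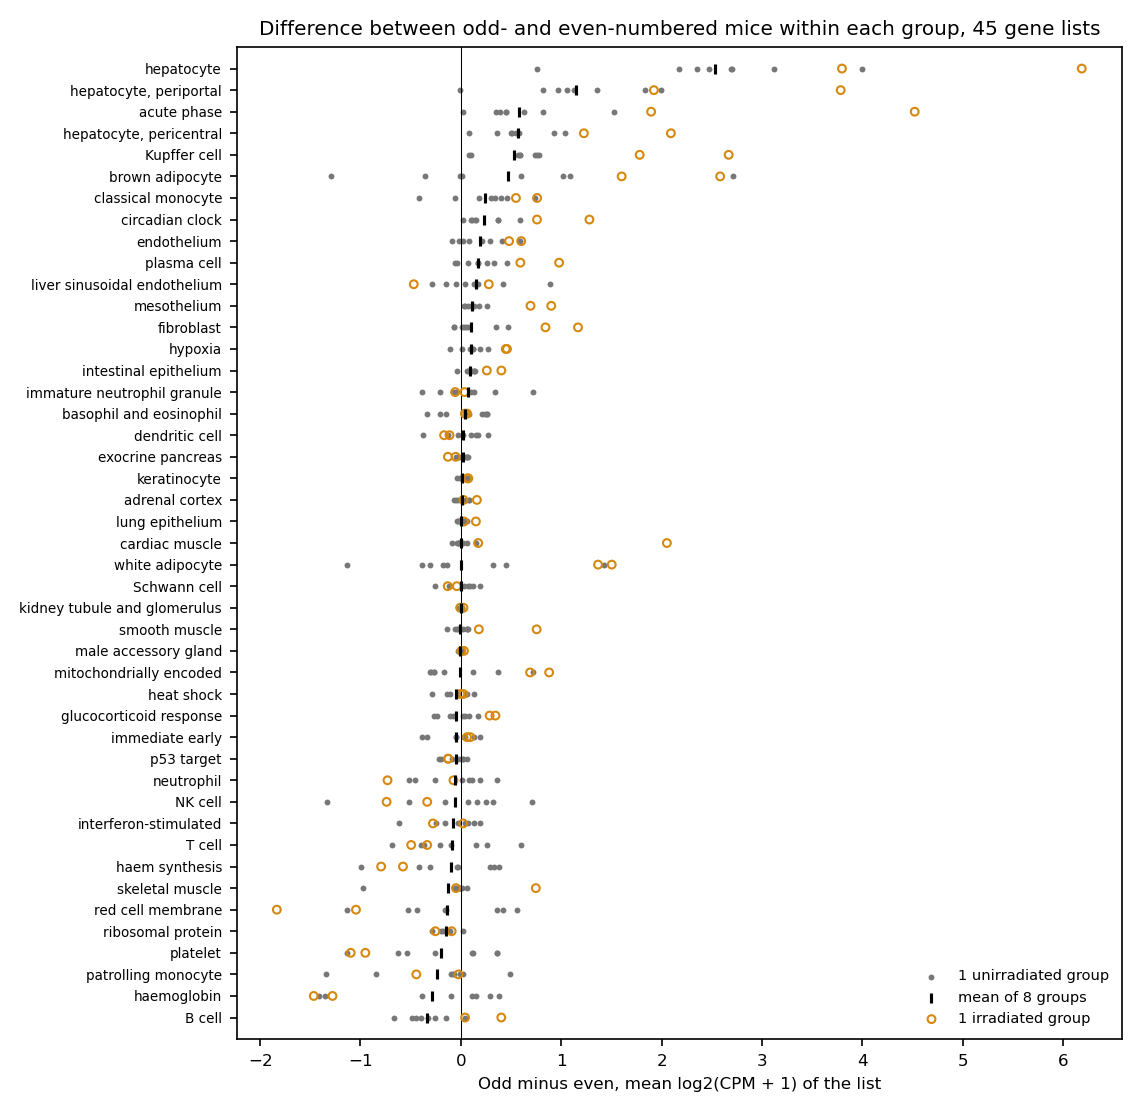
Odd-minus-even difference of the mean log2(CPM + 1) of each of the 45 gene lists; each filled point is 1 unirradiated group, the bar their mean over 8 groups and each open circle 1 irradiated group. The hepatocyte list lies farthest to the right, at a mean of 2.53, and the B cell list farthest to the left, at -0.34.

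The 12 irradiated mice, which are not among the 48 mice above, were tested in the same way, 6 odd against 6 even with the 2 groups as blocks. High liver and adipocyte levels in mice 49, 51, 57 and 59, all odd, were known from earlier results. For those genes, and for others that rise in the same mice, the test is no independent evidence. In mouse 51, the genes called over 2-fold higher in odd unirradiated mice took 19.8% of counts. With edgeR's quasi-likelihood test, 0 of 24916 genes were called (0%), and the smallest adjusted p was 0.0507, although 8294 genes (33.3%) had an unadjusted p under 0.05, 5880 of them higher in odd mice. This outcome lay at the threshold and turned on the settings. DESeq2 called 4782 genes, and edgeR called 5374 with total counts, 1529 with a stricter filter, 1600 with no filter, and 3858, 2725 and 3792 when mouse 53, 55 or 59 was left out, while limma voom called 0, with 5787 at an unadjusted p under 0.05.

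Hepatocyte genes summed to 9890, 35161 and 3.31 CPM in the odd vehicle-treated irradiated mice (49, 51 and 53) and to 7.66, 13624 and 127 CPM in the odd mice given 200 mg/kg (55, 57 and 59). The 6 even irradiated mice lay between 2.00 and 5.35 CPM, so 5 of 6 odd mice were above all of them and mouse 53 was among them. The difference on the log2 scale was 6.18 in the vehicle and 3.80 in the BIO 300 group. Alb had a log2 fold change of 16.13 ± 3.02 and an adjusted p of 0.0507 in edgeR's quasi-likelihood test, just short of the threshold, and all 16 genes had an unadjusted p under 0.05. Kupffer cell genes, at 1.63 to 561 CPM in odd and 0.525 to 3.25 CPM in even mice, were above all even mice in 5 of 6 odd mice. White adipocyte genes, at 14.1 to 225 CPM in odd and 5.54 to 27.9 CPM in even irradiated mice, were higher in odd mice by 1.43 on the log2 scale, in both groups, with 4 of 6 odd mice above all even ones and 6 of 8 genes at an unadjusted p under 0.05. Brown adipocyte genes were higher by 2.09, with 5 of 5 genes at an unadjusted p under 0.05.

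Among all genes tested in both sets of mice, 67.2% had a difference of the same sign in irradiated as in unirradiated mice. Of the genes higher in odd unirradiated mice at any p, 79.4% had the same sign, and of those called higher, 1448 of 1462 (99.0%). The genes called higher include the hepatocyte genes, whose high levels in odd irradiated mice were already known. Genes that rise together in the same mice are not separate observations. The share of 99.0% is therefore a description and no independent evidence. The share without the hepatocyte-rich irradiated mice was not tested. Of the genes lower at any p, 54.5% had the same sign, and of those called lower, 378 of 565 (66.9%), with 119 (21.1%) at an unadjusted p under 0.05. The B cell list in particular did not keep its sign, being higher by 0.22 on the log2 scale in odd irradiated mice, at 111 to 265 CPM against 78.9 to 236 CPM in even ones, and Pax5 differed by -0.17 ± 0.27 (adjusted p = 0.697, edgeR).

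Lists of blood cell genes also differed between odd and even irradiated mice, with overlapping ranges and no gene called. The 8 red cell membrane genes, which encode the skeleton and anion exchanger of erythrocytes, summed to 1694 to 8627 CPM in odd and 7928 to 16526 CPM in even mice, a log2 difference of -1.44, and all 8 had an unadjusted p under 0.05. Slc4a1, the anion exchanger, was at 129 to 1267 CPM in odd and 1136 to 1799 CPM in even mice (adjusted p = 0.0547, edgeR). All 4 haemoglobin genes were lower by the unadjusted p as well (-1.37), at -1.47 in the vehicle and -1.28 in the BIO 300 group. In unirradiated mice the haemoglobin difference ran from -1.41 to 0.38 and the red cell membrane difference from -1.13 to 0.56 over the 8 groups, so single unirradiated groups came close to these values, and no interaction with irradiation was called. Of 12 circadian genes, 9 were higher at an unadjusted p under 0.05. The number of genes with 10 or more counts was higher in odd irradiated mice, at a mean of 16735 against 14360.5, by an exact 2-sided permutation test within groups (p = 0.01, adjusted over 3 measures 0.03, n = 6 and 6). The mitochondrial share of counts was 1.05% against 0.250% (exact p = 0.035, adjusted 0.0525), and for total counts the exact p was 0.585. The hepatocyte-rich mice 49, 51 and 57, already known, held the highest values of both (17258, 17789 and 19099 genes, and 1.61%, 1.57% and 2.15%), against 15127 to 15778 genes in the other odd mice, so these tests are no independent evidence either. The part of these measures in the differences of blood genes was not tested.

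Cardiac muscle genes were at 2997 CPM in the irradiated mouse 57 and at 1.26 to 8.71 CPM in the other 11 irradiated mice, and skeletal muscle genes were highest in mouse 57 as well, at 415 CPM. The cardiac list was at most 3.54 CPM in odd and 3.97 CPM in even unirradiated mice. Among the unirradiated mice, no mouse thus held cardiac transcripts at a level near that of mouse 57.

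Whether the odd-minus-even difference changed with day or irradiation was tested by interaction terms in edgeR. Between Day 0 and Day 1, 1 of 27778 genes was called (0.0036%, difference lower on Day 1): Ddx23, an RNA helicase of the spliceosome, with an interaction of -0.44 ± 0.07 on the log2 scale and an adjusted p of 0.0144. Ddx23 was at 18.7 ± 1.74 CPM in odd and 17.4 ± 2.01 in even mice on Day 0 and at 12.9 ± 4.24 and 15.9 ± 3.91 CPM on Day 1 (SD, n = 12 each), so it was slightly higher in odd mice on the first day and lower on the next. It was not called with total counts, with DESeq2's size factors or with no filter, and DESeq2 itself called 1348 genes. Between irradiated and unirradiated mice of the same treatments on Day 1, 0 of 26875 genes was called (0%), with 6662 at an unadjusted p under 0.05 in edgeR, a smallest adjusted p of 0.101, and 2873 genes called by DESeq2. No hepatocyte or B-cell gene was called in either interaction by edgeR.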

How the data were processed

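Whole-blood RNA from 60 mice was sequenced, and raw gene counts were deposited in 10 tables of 12 mice, 1 per pair of groups. The 18 mice that recur in several tables had the same counts in each and were used once. Per the labels, the counts were made by the authors with Subread 1.5.2 from STAR 2.5.2b alignments against GRCm38, after trimming in Trimmomatic 0.36. The labels name poly(A) selection while the study's methods name total RNA depleted of ribosomal and globin RNA; which applies was not settled, and it bears on haemoglobin and mitochondrial levels. The annotation release is not given in the sources used here.

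Counts were analysed in R 4.3.3. Odd- and even-numbered mice were compared with edgeR 4.0.16 (estimateDisp, glmQLFit, glmQLFTest, TMM) with group as a block, over genes with at least 10 counts summed over the mice of the fit, and p-values were adjusted by Benjamini-Hochberg over all genes tested. Log2 fold changes are given ± SE, taken as the absolute log2 fold change over the square root of the F statistic of the test. This SE is back-calculated and is not fitted directly. List levels are means of log2(CPM + 1), with CPM from TMM over all 60 mice. Alternatives used DESeq2 1.42.0, limma 3.58.1 (voom), other scalings, filters and mice. The pipeline was tested on simulated data. Intervals and floors cover counting error only.

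The split by animal number, the 45 gene lists and the tests were chosen with earlier results of these data known. Genes named were the 2 most abundant of each list, the 10 largest changes in each direction among called genes with at least 10 CPM in odd or even mice and 6 of 8 groups in the same direction, and called interaction genes. Other list members are named where called, or to show a list, after their values were seen. No 2 mice of a group had the same counts within sampling noise (smallest chi-square per gene 12.0), and the replicates are separate mice per the labels. Gene coordinates are GENCODE M21 on GRCm38. Values of some list members are not reported here.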

Additional observations from a re-analysis of the deposited data

Results flagged for a closer look

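List levels, as the mean log2(CPM + 1) of the list's genes, were examined in groups of 6 mice. By Dixon's 95% criterion, 1 level stood apart from the rest of its group in 11 of 40 cases (10 groups, 4 lists). The nominal rate of about 1 in 20 assumes normal values in independent cases. Here the lists shared mice, many levels lay near the floor, and liver transcripts in odd mice had guided the split. The counts are therefore a description and are not read against that rate. Of the 11 levels, 9 were in odd and 2 in even mice. For the hepatocyte list they were mouse 1 (50 mg/kg, Day 0) at 5.32, mouse 9 (100 mg/kg, Day 0) at 6.68, mouse 17 (vehicle, Day 0) at 9.16, mouse 21 (200 mg/kg, Day 0) at 6.56, mouse 29 (vehicle, Day 1) at 6.32 and mouse 57 (200 mg/kg, irradiated) at 9.01. For the Kupffer cell list, mouse 17 stood apart at 2.29 and mouse 57 at 4.11. For the white adipocyte list, the even mice 4 (50 mg/kg, Day 0) at 1.39 and 36 (50 mg/kg, Day 1) at 1.54 and the odd mouse 59 (200 mg/kg, irradiated) at 4.49 stood apart. No B-cell level stood apart. The 100 mg/kg Day 1 group, whose 3 odd mice held 4720, 306 and 25.1 CPM of hepatocyte genes, did not meet the criterion.

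The odd-minus-even difference of Ddx23 differed between Day 0 and Day 1 by -0.44 on the log2 scale in the test of the interaction (edgeR, adjusted p = 0.0144).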

How the results depend on the processing

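With 2047 genes called in the 48 mice (1119 over 2-fold), Day 0 mice alone gave 1186 (513), Day 1 mice alone 949 (511), vehicle mice alone 0 (0), with 3090 at an unadjusted p under 0.05, and limma voom 379 over 2-fold. Leaving out the 5 odd mice richest in hepatocyte transcripts, an alternative chosen after seeing the data, gave 537 (327). Leaving out 1 mouse at a time gave 1561 to 2288 calls and 856 to 1204 over 2-fold. In the irradiated mice, the count of 0 became 5374 with total counts, 1529 with filterByExpr, 1600 with no filter and 4782 with DESeq2, and ran from 0 to 3858 on leaving out 1 mouse. The day interaction gave 0 with total counts, with DESeq2's size factors and with no filter and 1348 with DESeq2, and the irradiation interaction gave 2873 with DESeq2. Map1a reversed to 0.12 in vehicle mice alone. Of 1836 values of the 27 genes followed over the alternatives in unirradiated mice, 1726 kept their call and direction. In 48 of these alternatives only 1 mouse was left out, which changes the data little. Of the 27 genes, 11 kept both with total counts, 11 without blocks and 1 in vehicle mice alone. In Day 0 mice alone 16 did, in Day 1 mice alone 24, and with DESeq2 all 27. Of 90 list values, 11 moved by more than the spread between groups. The cause of these changes was not tested. No paired analysis was possible because each animal number occurs once and no number is shared between groups.

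Depth of 15099415 counts or more sets the floor for genes at a few counts, and even mice with 0 counts of a gene do not show that it was absent.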
